A study of Homo sapiens with 24 samples.

Results

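ETV1, ERG, ELK4, SPDEF, EHF, ELF3, ETS2 and ETV4 are genes of the ETS family that have been studied in prostate cells. They were taken by symbol from every expression table of the series, and all 8 were among the 23946 genes listed there. The series profiled polyadenylated RNA of LNCaP, a human prostate cancer cell line that responds to androgen. In 1 experiment cells received vehicle, 10 nM of the androgen dihydrotestosterone (DHT) or 10 μM of the antiandrogen enzalutamide, with 2 libraries each for DHT at 4 h, DHT at 24 h, enzalutamide at 4 h and enzalutamide at 24 h. The labels number 4 vehicle samples, for which no time is given. Of their columns, 3 are named replicate 1 and differed from each other far less than from the column named replicate 2. On the shared name and this difference, these 3 were taken as runs of 1 library and summed, and n was 2. The labels do not state that they were 1 library. In the other experiment cells were transfected with a non-targeting siRNA pool (siControl) or a pool against the GATA2 transcript (siGATA2), and 72 h later were given vehicle or enzalutamide (25 μM, 24 h), with 3 libraries per group. By the protocol in the labels all cells shared 3 days in charcoal-stripped serum without phenol red, a medium poor in steroid hormones, so vehicle was a state of low androgen.

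ETS proteins share a DNA-binding domain that reads a GGAA core, and they differ in the tissues that make them and in the signals that act on them. In prostate cancer ERG, ETV1, ETV4 and ELK4 are known as 3' partners of rearrangements or chimeric transcripts whose 5' part comes from an androgen-regulated gene such as TMPRSS2 or SLC45A3, whereas EHF, ELF3 and SPDEF are factors of normal epithelium. LNCaP carries no ERG rearrangement and is known for a copy of the ETV1 region inserted near MIPOL1 and FOXA1 on another chromosome. GATA2 is a zinc finger factor that binds GATA sites in DNA.

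The 10 ligand libraries held 38894876 to 59985286 estimated counts, and levels are given as CPM, the count relative to the library total, with TMM scaling, which do not allow for gene length. The siRNA tables hold RPKM, which do. A gene was called where the Benjamini-Hochberg adjusted p over all genes tested was below 0.05, by the quasi-likelihood test of edgeR for the ligand libraries and by limma on log2(RPKM + 0.1) for the siRNA libraries. The targeted gene GATA2 lay at 77.0 to 86.1 RPKM in siControl vehicle and at 46.6 to 54.3 in siGATA2 vehicle, and at 128 to 132 and 60.1 to 64.7 under enzalutamide, so its transcript was lowered and not removed. The labels number the replicates, and for the siRNA samples call them biological, without saying whether they came from separate cultures, so p-values measure the spread between these samples. The 6 luminal markers read here were all above a mean of 1 RPKM, among them KLK3 and KRT18, while the 4 basal markers summed to at most 0.14 RPKM in any library. The summed level of the luminal list was 1380 to 1440 RPKM in siControl vehicle, 867 to 914 in siControl enzalutamide, 835 to 845 in siGATA2 vehicle and 814 to 820 in siGATA2 enzalutamide. The fall lay in KLK3, a secreted protease, which went from a mean of 791 RPKM in siControl vehicle to 286, 24.1 and 18.5 RPKM in the other groups in that order. Without KLK3 the list summed to 614 to 633, 607 to 611, 809 to 821 and 795 to 802 RPKM, so it was higher in siGATA2, where KRT8, KRT18 and STEAP2 rose. The list of 6 endothelial and blood cell markers summed to 4.5 to 5.7 RPKM in siControl and to 11.7 to 13.5 in siGATA2, most of it CD68, and the 5 stromal markers to 11.9 to 17.2. The part of these shifts in the results was not tested, and in such bulk samples fewer cells of a type and less RNA per cell cannot be told apart.

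The RefSeq table of promoter windows (GRCh38.p14) held 7 of the 8 genes in 17 windows. The 250 bases upstream of the start are shown for the 3 members that rose with DHT at both times, EHF, ETS2 and ELK4, since with GATA2 knockdown ELK4 rose while EHF and ETS2 fell. Each lies outside any exon of the GENCODE annotation and reads 5′ to 3′ on the gene's strand, with EHF at chr11:34624007-34624256 (plus strand), ETS2 at chr21:38804933-38805182 (plus strand) and ELK4 at chr1:205632012-205632261 (minus strand). Capitals mark matches to motifs searched on both strands. The GATA motif was read as GATAA. The ETS motif was read as CCGGAAGT. The letters TGTTCT were searched as well. None of the 3 windows shown held them, while windows of ETV1 and 12.4% of all windows did.
EHF: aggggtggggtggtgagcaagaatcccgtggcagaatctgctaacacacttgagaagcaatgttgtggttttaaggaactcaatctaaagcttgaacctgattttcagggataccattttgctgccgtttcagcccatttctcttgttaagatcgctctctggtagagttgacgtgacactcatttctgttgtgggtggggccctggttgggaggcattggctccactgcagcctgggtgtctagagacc
ETS2: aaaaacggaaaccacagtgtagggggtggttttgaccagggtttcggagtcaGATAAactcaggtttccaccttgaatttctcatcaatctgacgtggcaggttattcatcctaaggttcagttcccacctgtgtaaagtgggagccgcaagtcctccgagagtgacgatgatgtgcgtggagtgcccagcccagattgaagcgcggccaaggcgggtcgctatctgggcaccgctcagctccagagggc
ELK4: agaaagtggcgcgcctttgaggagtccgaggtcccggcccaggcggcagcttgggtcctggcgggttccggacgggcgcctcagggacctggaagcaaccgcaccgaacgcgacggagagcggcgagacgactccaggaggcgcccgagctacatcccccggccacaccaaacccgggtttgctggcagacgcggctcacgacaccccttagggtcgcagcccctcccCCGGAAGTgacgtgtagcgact
The EHF window held neither motif, the ETS2 window held the GATA motif beginning 198 bases before the start, and the ELK4 window held the ETS motif beginning 22 bases before it. EHF and ETS2 each have another window, at chr11:34632316-34632565 and chr21:38805679-38805928, which overlaps exons of the gene itself and gives the opposite picture, with the GATA motif at 2 places for EHF and neither motif for ETS2. Of all 35116 windows of this length, 20.4% held the GATA motif and 3.42% the ETS motif. A match is a description of the letters and does not show that a factor was bound.

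Levels could be compared between genes only in RPKM. EHF, an epithelium-specific factor, was the most abundant ETS transcript, with a mean of 141 RPKM over the 12 siRNA libraries, above 98.5% of the 20369 genes tested. ELF3, its close relative, followed with 61.6 RPKM and SPDEF, a factor of luminal and secretory epithelium, with 55.9 RPKM. ELK4, a ternary complex factor that works with SRF, averaged 16.1 RPKM, and ETV1, of the PEA3 subfamily, 13.3 RPKM. ETS2, a widely expressed target of MAPK signalling, averaged 1.68 RPKM and ETV4, also of the PEA3 subfamily, 0.603 RPKM. ERG, a factor of endothelium, was practically absent, with a mean of 0.00151 RPKM.

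**Figure D1:**
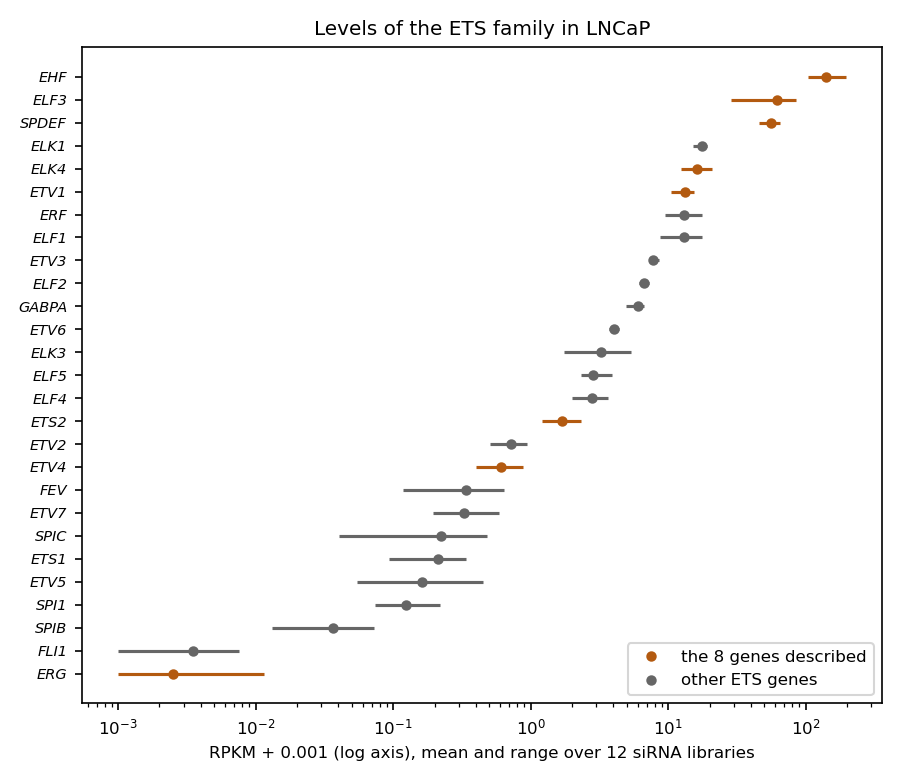
Level of the 27 ETS genes with a row in the siRNA tables, as RPKM + 0.001 on a log axis; points are means and bars the range over the 12 libraries of the 4 groups, with the 8 genes described here in orange. EHF, ELF3 and SPDEF stand above all other ETS genes, and ERG lies at the bottom.

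The order changed between groups. In siControl vehicle it ran EHF, SPDEF, ELF3, ELK4, ETV1, ETS2, ETV4 and ERG, and the ranges of ELK4 (13.1 to 14.2 RPKM) and ETV1 (12.8 to 14 RPKM) overlapped. In siControl enzalutamide ELF3 (62.1 to 67.2 RPKM) and SPDEF (59.6 to 65.4 RPKM) overlapped. In both siGATA2 groups ELF3 ranked above SPDEF with no overlap. All other neighbours in the 4 orders had ranges that did not overlap. Of the 27 ETS genes with a row, 16 averaged at least 1 RPKM, and among the other ETS genes ELK1 was highest with 17.5 RPKM.

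ERG was at or near 0 throughout. It had 0 counts in 8 of the 10 ligand libraries and 1 count in a vehicle and in a DHT 24 h library, and a count of 0 allowed 3 counts, or 0.05 to 0.0771 CPM of the library total, for counting error only. In the siRNA libraries the steps between small values put ERG at 0 reads in 7 libraries, at 1 read in 4 and at 5 reads in siControl enzalutamide replicate 2. It could therefore not be compared between conditions, and no fold is given. TMPRSS2, the usual 5' partner of ERG, was in contrast present in all libraries. It lay at 74.7 and 75.6 CPM in vehicle, at 441 CPM in both DHT 4 h libraries and at 379 and 383 CPM with DHT at 24 h, a log2 fold change of 2.55 (SE 0.0393, edgeR adjusted p = 1.15e-13) at 4 h. ERG had no more than 1 count in these DHT libraries.

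Of the 6 members that passed the filter on low counts in the ligand experiment, DHT at 4 h called 5, with 6.77% of all genes tested called in that comparison. EHF, ETS2, ELK4 and ETV1 rose and ELF3 fell. Upward calls made up 4.66% of all genes and downward calls 2.11%. The median log2 fold change of the 6 was 0.27 against -0.01 over all genes.

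EHF had 616 and 589 CPM in vehicle, 895 and 894 CPM with DHT at 4 h and 835 and 793 CPM at 24 h. The DHT libraries all lay above the vehicle libraries. The rise was 0.57 on the log2 scale at 4 h (SE 0.0336, edgeR adjusted p = 1.03e-07) and 0.43 at 24 h (SE 0.0336, edgeR adjusted p = 2.38e-07), or 48.4% and 35.1% above the vehicle mean. Between the times EHF fell by 0.14 on the log2 scale (edgeR adjusted p = 0.00444).

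ETS2 had far fewer reads, 301 to 559 counts per library. It stood at 7.56 and 7.64 CPM in vehicle, 10.5 and 9.91 CPM with DHT at 4 h and 9.44 and 10.0 CPM at 24 h. Both DHT groups lay above vehicle, by 0.43 (SE 0.0756, edgeR adjusted p = 0.00275) and 0.35 (SE 0.077, edgeR adjusted p = 0.00183) on the log2 scale. The DHT times overlapped and did not differ beyond their spread (log2 difference -0.07, SE 0.0739).

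ELK4 had 162 and 156 CPM in vehicle, 212 and 209 CPM with DHT at 4 h and 220 and 211 CPM at 24 h. The log2 fold changes were 0.40 (SE 0.0596, edgeR adjusted p = 6.79e-04) and 0.44 (SE 0.0598, edgeR adjusted p = 4.33e-05), with no overlap with vehicle. SLC45A3, whose transcript can be joined to ELK4 by read-through, moved much further, from 46.6 and 50.7 CPM in vehicle to 180 and 186 CPM at 4 h and 262 and 263 CPM at 24 h. Its log2 fold changes were 1.91 and 2.44. The tables hold 1 value per gene, so chimeric ELK4 reads could not be counted apart.

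SPDEF had 55.4 and 57.3 CPM in vehicle, 59.9 and 64.3 CPM with DHT at 4 h and 92.8 and 99 CPM at 24 h. The change at 4 h did not pass the test (log2 fold change 0.14, SE 0.0636, edgeR adjusted p = 0.252), while at 24 h SPDEF rose by 0.77 (SE 0.063, edgeR adjusted p = 4.13e-07), the largest change against vehicle of any member in the ligand experiment. The step between the times was 0.63 on the log2 scale (SE 0.0623, edgeR adjusted p = 2.82e-06).

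ELF3 went the other way. It had 40.2 and 41.5 CPM in vehicle, 29.4 and 30 CPM with DHT at 4 h and 32 and 35 CPM at 24 h, so both DHT groups lay wholly below vehicle. It fell by 0.46 (SE 0.0542, edgeR adjusted p = 9.16e-05) at 4 h and by 0.29 (SE 0.0544, edgeR adjusted p = 6.30e-04) at 24 h on the log2 scale. The partial return between the times, 0.17 (edgeR adjusted p = 0.0212), was not called without DHT 24 h replicate 2 (0.10), DHT 4 h replicate 1 (0.15) or DHT 4 h replicate 2 (0.18), nor under library totals as the scale (0.13, adjusted p = 0.0786). It was 0.10 (adjusted p = 0.378) with the prefix of the column names as a term; these prefixes, ZC1 to ZC3, divide the ligand columns in a way that the labels do not explain.

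ETV1, the rearranged gene, had 461 and 443 CPM in vehicle, 503 and 494 CPM with DHT at 4 h and 467 and 453 CPM at 24 h. The rise at 4 h was 0.14 (SE 0.0336, edgeR adjusted p = 0.0221), and it was not called without DHT 4 h replicate 1 (adjusted p = 0.217), DHT 4 h replicate 2 (0.104) or vehicle replicate 2 (0.185). At 24 h the groups overlapped (0.02, SE 0.0336), and ETV1 fell between the times by 0.12 (edgeR adjusted p = 0.0115), a call lost without DHT 24 h replicate 2 (adjusted p = 0.07) or DHT 4 h replicate 1 (adjusted p = 0.0962).

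At 24 h with DHT 5 of the 6 were again called, EHF, ETS2, ELK4 and SPDEF up and ELF3 down, but here 50.0% of all genes tested were called (26.9% up and 23.2% down). The split of all calls depended on the scale, with 4182 up and 3601 down in the main fit and 3314 up and 4555 down with library totals only. Between the DHT times 4 of the 6 were called (EHF and ETV1 lower, ELF3 and SPDEF higher at 24 h), with 49.8% of all genes (26.3% higher and 23.5% lower). Without DHT 24 h replicate 2 or DHT 4 h replicate 1 this count was 2. ETV4 had 2 to 8 counts per ligand library and was not tested. Markers of other cell types also moved with DHT at 24 h by edgeR. VWF (16 to 21 CPM on average), CD68 (1.43 to 2.82 CPM) and KRT14 (0.0336 to 0.368 CPM) rose, and COL1A1 (23.9 to 15.2 CPM) and LUM (1.11 to 0.498 CPM) fell. No such marker was called with DHT at 4 h, while enzalutamide lowered VWF at both times and LUM at 24 h. Their part in these results was not tested.

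**Figure D2:**
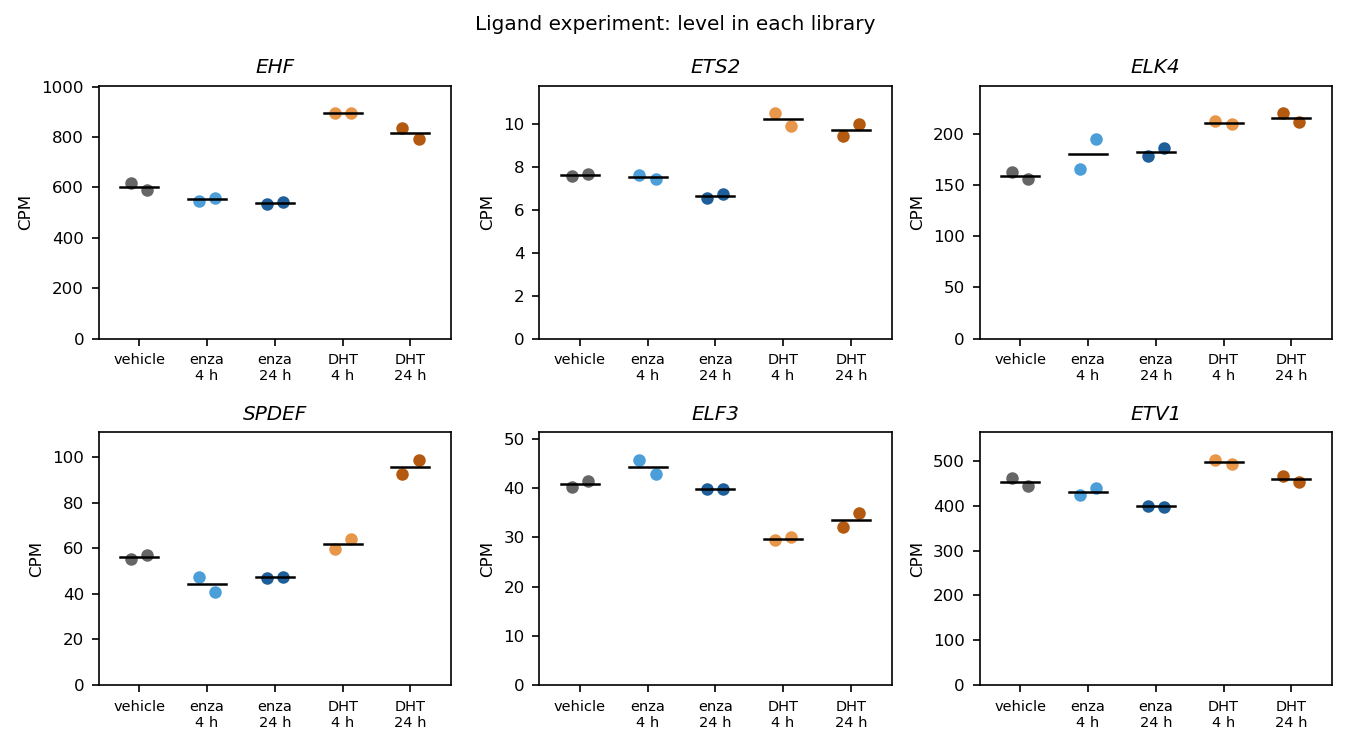
CPM of the 6 members tested in the ligand experiment, with a point per library (2 per group) and a black line at the group mean; each panel starts at 0. The DHT points of EHF, ETS2 and ELK4 lie above the vehicle points at both times, those of ELF3 lie below, and SPDEF is highest at 24 h.

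Enzalutamide at 10 μM was compared with the same vehicle libraries. At 4 h it called 2 of the 6 tested members, both lower, with 13.6% of all genes called (6.94% higher and 6.68% lower). SPDEF went from 55.4 and 57.3 CPM to 47.5 and 40.8 CPM, a fall of 0.35 on the log2 scale (SE 0.0656, edgeR adjusted p = 0.00389). EHF went from 616 and 589 CPM to 547 and 558 CPM, a fall of 0.12 (SE 0.0337, edgeR adjusted p = 0.0273). The EHF call was lost without DHT 4 h replicate 1 or 2 (both adjusted p = 0.0511), enzalutamide 4 h replicate 1 (adjusted p = 0.062) or vehicle replicate 1 (adjusted p = 0.17), and the count of called members was then 1 in each case but that without enzalutamide 4 h replicate 1.

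ELK4 was the uneven case at 4 h, with 165 and 195 CPM against 162 and 156 CPM in vehicle. Its log2 difference of 0.18 (SE 0.06) missed the threshold (edgeR adjusted p = 0.0673) and passed without enzalutamide 4 h replicate 1 (0.29, adjusted p = 2.67e-04), with DESeq2 (adjusted p = 0.0348), with the 4 vehicle columns as samples (adjusted p = 0.0257) and with no filter on low counts (adjusted p = 8.93e-04). The value without enzalutamide 4 h replicate 2 was 0.05. ELF3 (0.12), ETV1 (-0.07) and ETS2 (-0.02) did not pass the test at 4 h in the main fit. ETV1 was called where the 4 vehicle columns were entered as separate samples (-0.09, adjusted p = 0.0362), which took the count of called members to 4. Calls over all genes went from 2119 to 2938 in that fit.

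At 24 h with enzalutamide 4 of the 6 were called, with 33.4% of all genes (16.4% higher and 17.0% lower). SPDEF had 46.9 and 47.6 CPM, a fall of 0.25 (SE 0.0648, edgeR adjusted p = 0.00887), which was not called without enzalutamide 24 h replicate 1 (adjusted p = 0.0518), when 2 members were called. EHF had 532 and 541 CPM, a fall of 0.17 (SE 0.0337, edgeR adjusted p = 0.00197). ETV1 had 400 and 397 CPM, a fall of 0.18 (SE 0.0337, edgeR adjusted p = 0.00106), or 11.9% below the vehicle mean.

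ELK4 was the member that rose, to 178 and 186 CPM (log2 fold change 0.19, SE 0.0598, edgeR adjusted p = 0.0253). This call was lost without enzalutamide 24 h replicate 1 (adjusted p = 0.0665) or 2 (adjusted p = 0.2), without vehicle replicate 1 (adjusted p = 0.0735) or 2 (adjusted p = 0.159), and with the column prefix as a term (adjusted p = 0.0585). ELK4 was thus higher than vehicle under both DHT and enzalutamide. ETS2, at 6.53 and 6.72 CPM, lay below both vehicle libraries without passing the test (-0.20, SE 0.0798, edgeR adjusted p = 0.0725), and it passed with the 4 vehicle columns as samples (adjusted p = 0.0484) or with the ZC1 run alone as vehicle replicate 1 (adjusted p = 0.0431). ELF3 had 39.9 and 39.8 CPM against 40.2 and 41.5 CPM in vehicle (-0.03, SE 0.0533).

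Between 4 h and 24 h of enzalutamide ETV1 was the 1 member called, with 24.6% of all genes (11.7% higher and 12.9% lower). It fell by 0.11 (SE 0.0337, edgeR adjusted p = 0.0247). The call was lost without enzalutamide 24 h replicate 1 (adjusted p = 0.0955), enzalutamide 24 h replicate 2 (adjusted p = 0.123) or enzalutamide 4 h replicate 2 (adjusted p = 0.104), and with the column prefix as a term (-0.09, adjusted p = 0.207). The times of enzalutamide and the prefixes coincided, with ZC2 at 4 h and ZC3 at 24 h. To separate prefix from time, that fit could use only the vehicle columns and the DHT 24 h libraries. Of the latter, replicate 1 carried ZC2 and replicate 2 carried ZC3.

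Set directly against enzalutamide at the same time, DHT called all 6 tested members at 4 h, with 15.8% of all genes called (8.49% higher and 7.28% lower), and at 24 h, with 64.9% called (31.3% higher and 33.6% lower). These comparisons use the same ligand libraries as those against vehicle. SPDEF showed the widest gap, with 92.8 and 99 CPM under DHT and 46.9 and 47.6 CPM under enzalutamide at 24 h, a log2 difference of 1.02 (SE 0.0636, edgeR adjusted p = 1.14e-08). At 4 h the SPDEF difference was 0.49. EHF differed by 0.69 at 4 h and 0.60 at 24 h. ETS2 differed by 0.45 and 0.55, and ETV1 by 0.21 at both times. ELF3 was lower with DHT, by 0.58 at 4 h and by 0.26 at 24 h on the log2 scale.

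ELK4 was higher with DHT by 0.22 at 4 h (edgeR adjusted p = 0.0216) and 0.25 at 24 h (edgeR adjusted p = 0.00252). The difference at 4 h was not called without DHT 4 h replicate 1 (adjusted p = 0.106), DHT 4 h replicate 2 (adjusted p = 0.0838) or enzalutamide 4 h replicate 1 (adjusted p = 0.0962). Ligand and column prefix coincided at 4 h, with ZC1 for both DHT libraries and ZC2 for both enzalutamide libraries. With the prefix as a term, calls over all genes at 4 h went from 2453 to 1060. In that fit the 4 h differences of ELK4 (edgeR adjusted p = 0.0888) and of ETS2 (edgeR adjusted p = 0.251) were not called.

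In siControl cells 25 μM enzalutamide for 24 h called 4 of the members, all 8 of which passed the filter of the siRNA tables, with 42.1% of all genes called (17.7% up and 24.4% down). Dose, transfection and time in culture differed from the ligand experiment, so the values of both are given side by side and were not compared. The split of all calls again depended on the scale, 3612 up and 4970 down as deposited and 4552 up and 4089 down with the libraries rescaled to 1 median. The calls of the members were the same under that scaling.

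ELF3 showed the largest change of the members here. It had 29.6, 28.8 and 30.1 RPKM in siControl vehicle and 62.1, 67.2 and 66.7 RPKM in siControl enzalutamide. No enzalutamide library was near the vehicle range. The rise was 1.14 on the log2 scale (SE 0.0577, limma adjusted p = 1.97e-07), a ratio of means of 2.22. At 10 μM in untransfected cells ELF3 had stood at -0.03 after 24 h.

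ETV4 rose as well, from 0.571, 0.501 and 0.4 RPKM to 0.792, 0.875 and 0.796 RPKM (log2 fold change 0.65, SE 0.112, limma adjusted p = 8.94e-04). The groups did not overlap. ETV4 shares exonic sequence with DHX8 on the opposite strand, which was far more abundant at 10.7 to 13.6 RPKM, and strand use in the counting is not given in the sources used here. DHX8 fell by 0.13 in this comparison (limma adjusted p = 0.00757). In the ligand libraries ETV4 had 2 to 8 counts each, or 0.051 to 0.158 CPM. Whether the ETV4 values of the siRNA libraries come from ETV4 alone was not tested.

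ETV1 fell from 13.4, 14 and 12.8 RPKM to 10.9, 10.5 and 10.7 RPKM, by 0.32 on the log2 scale (SE 0.0401, limma adjusted p = 1.15e-04). EHF fell from 186, 195 and 183 RPKM to 166, 160 and 164 RPKM, by 0.20 (SE 0.0262, limma adjusted p = 1.38e-04). Both were also lower with 10 μM enzalutamide at 24 h, by 0.18 and 0.17. SPDEF, at 59.6 to 65.4 RPKM against 58.8 to 63.2 RPKM, overlapped (0.02, SE 0.0632), as did ETS2 (-0.10, SE 0.0837), and ELK4 did not pass the test (-0.10, SE 0.0418, limma adjusted p = 0.0759).

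In siGATA2 cells the same dose of enzalutamide called none of the 8 members by limma, and 84 of all genes, or 0.412%. At an unadjusted p below 0.05 limma gave 4 members, ELF3, ETV4, EHF and ELK4, and 10.8% of all genes. ELF3 had 72.4, 75.1 and 63.9 RPKM in siGATA2 vehicle and 78.7, 85.1 and 79.1 RPKM in siGATA2 enzalutamide (log2 difference 0.20, SE 0.0577, limma adjusted p = 0.228). ETV4 had 0.418 to 0.511 and 0.618 to 0.679 RPKM, which did not overlap (0.40, SE 0.112, limma adjusted p = 0.217). ETV1 had 14.5, 14.6 and 15.5 RPKM in vehicle and 14.5, 13.7 and 14.5 RPKM with enzalutamide (-0.06, SE 0.0401). The split of all calls was 45 up and 39 down as deposited, and 57 up and 32 down with the libraries rescaled.

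The test of the difference between the siRNAs, an interaction term, called 4 members, with 25.8% of all genes (15.0% positive and 10.8% negative). The enzalutamide effect on ELF3 was lower in siGATA2 by 0.94 (SE 0.0816, limma adjusted p = 2.86e-05), the effect on EHF was higher by 0.26 (SE 0.037, limma adjusted p = 6.13e-04) and that on ETV1 by 0.25 (SE 0.0566, limma adjusted p = 0.00817). For ELK4 the term was 0.21 (SE 0.0591, limma adjusted p = 0.0239), and it was not called in 5 of the 12 fits that left out 1 library, those without siControl enzalutamide replicate 1 or 2, siGATA2 enzalutamide replicate 1 or siGATA2 vehicle replicate 1 or 2, with adjusted p up to 0.0595. For ETV4 (-0.25, SE 0.158), SPDEF (-0.08, SE 0.0894) and ETS2 (0.09, SE 0.118) the term did not pass the test.

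**Figure D3:**
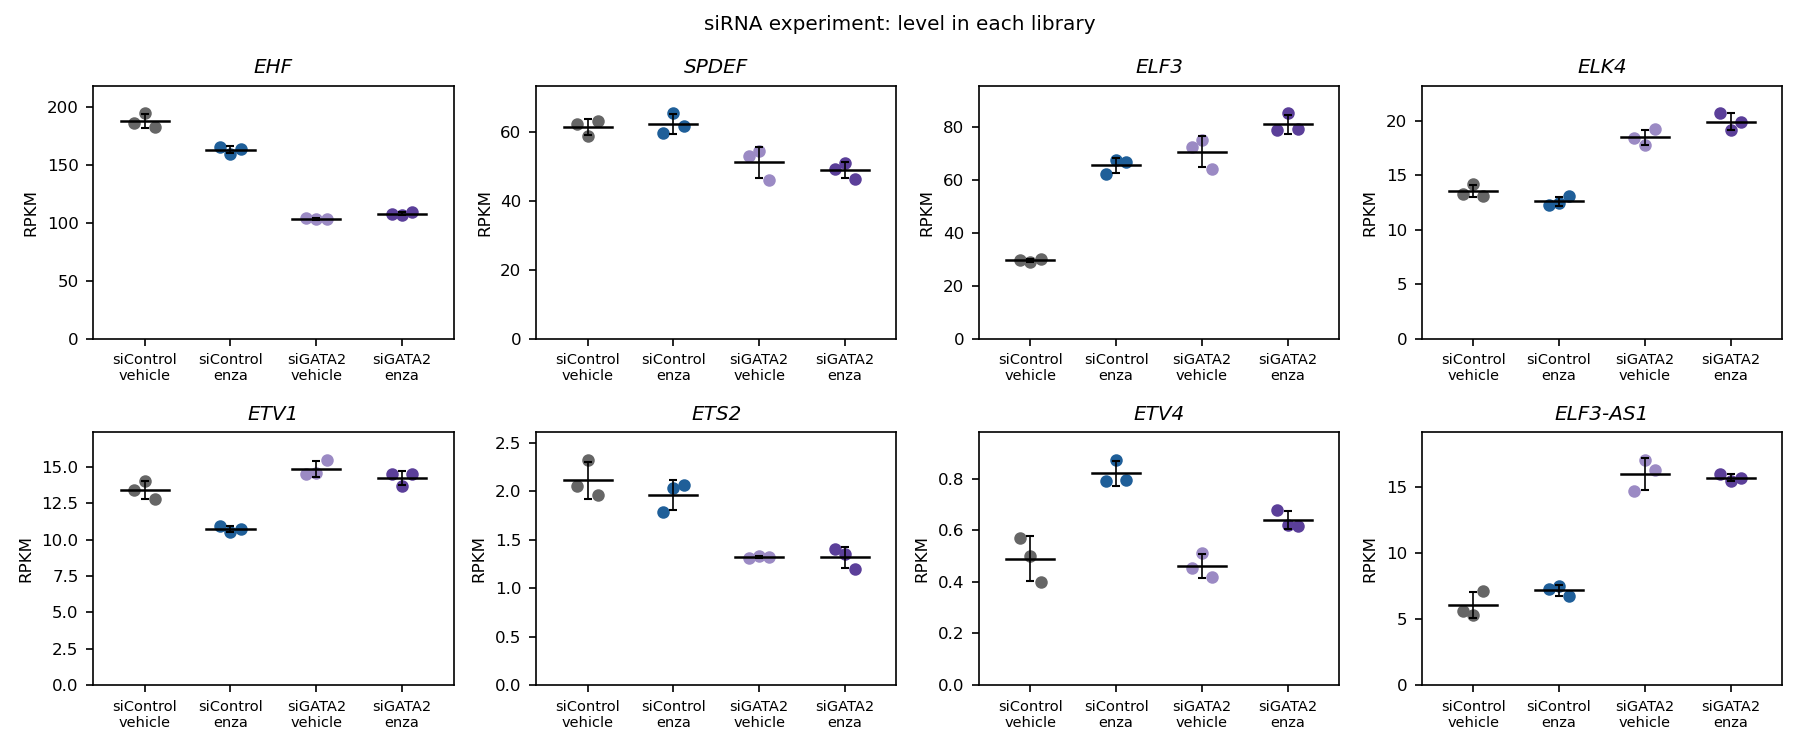
RPKM of 7 members and of the antisense gene ELF3-AS1 in the siRNA experiment, with a point per library (3 per group), a line at the mean and bars of 1 SD; each panel starts at 0. ELF3 is low in siControl vehicle alone, EHF and ETS2 are lower in both siGATA2 groups, and ELK4 is higher there.

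GATA2 knockdown was tested within each treatment. In vehicle it called 6 of the 8, with 55.6% of all genes called, 3 upward (24.2% of all genes) and 3 downward (31.4% of all genes). Under enzalutamide it called 7, with 54.5% of all genes called, 3 upward (26.3% of all genes) and 4 downward (28.1% of all genes).

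EHF fell the most. It had 186, 195 and 183 RPKM in siControl vehicle and 104, 103 and 103 RPKM in siGATA2 vehicle, a fall of 0.86 on the log2 scale (SE 0.0262, limma adjusted p = 1.51e-09) or 45.0% of the siControl mean. Under enzalutamide EHF fell from 160 to 166 RPKM to 107 to 109 RPKM, by 0.60 (SE 0.0262, limma adjusted p = 1.85e-08). The siGATA2 libraries varied little, with an SD of 0.977 RPKM in vehicle.

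ETS2 fell beside it, from 2.06, 2.33 and 1.96 RPKM to 1.31, 1.33 and 1.32 RPKM in vehicle (-0.64, SE 0.0837, limma adjusted p = 6.83e-05). Under enzalutamide it fell from 1.79, 2.04 and 2.07 RPKM to 1.41, 1.35 and 1.2 RPKM (-0.55, SE 0.0837, limma adjusted p = 2.26e-04). SPDEF fell from 62.2, 58.8 and 63.2 RPKM to 53.0, 54.3 and 46.0 RPKM in vehicle (-0.27, SE 0.0632, limma adjusted p = 0.00406) and by 0.35 under enzalutamide (SE 0.0632, limma adjusted p = 7.60e-04). No siGATA2 library of these 2 genes reached the siControl range.

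ELK4 rose. It had 13.3, 14.2 and 13.1 RPKM in siControl vehicle and 18.4, 17.8 and 19.2 RPKM in siGATA2 vehicle (0.45, SE 0.0418, limma adjusted p = 5.45e-06), and 12.3 to 13.1 and 19.1 to 20.7 RPKM under enzalutamide (0.66, SE 0.0418, limma adjusted p = 2.68e-07). SLC45A3 fell over the same libraries, by 1.88 in vehicle and by 1.61 under enzalutamide on the log2 scale. MFSD4A, which overlaps exons of ELK4 on the opposite strand, had 1.81 to 3.66 RPKM over the 12 libraries, below ELK4 in each, and rose with siGATA2 by 0.45 in vehicle (limma adjusted p = 8.24e-04) but not under enzalutamide (-0.15, limma adjusted p = 0.145).

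ELF3 rose most of all members, from 28.8 to 30.1 RPKM in siControl vehicle to 63.9 to 75.1 RPKM in siGATA2 vehicle (1.25, SE 0.0577, limma adjusted p = 2.51e-08), a ratio of means of 2.39. Under enzalutamide, where ELF3 was already at 62.1 to 67.2 RPKM with siControl, the rise was 0.31 (SE 0.0577, limma adjusted p = 8.94e-04). ELF3-AS1, an antisense gene whose exons overlap those of ELF3, rose too. It had 5.64, 5.33 and 7.16 RPKM in siControl vehicle and 14.7, 17.1 and 16.3 RPKM in siGATA2 vehicle (1.40, SE 0.0964, limma adjusted p = 4.75e-07), and rose by 1.13 under enzalutamide.

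Under enzalutamide in siControl cells ELF3-AS1 had 7.31, 7.48 and 6.72 RPKM, which overlapped vehicle (0.25, SE 0.0964, limma adjusted p = 0.0577), while ELF3 had risen by 1.14. In the ligand libraries ELF3-AS1 stood at 5.44 to 6.63 CPM and passed the test in none of the 8 comparisons by edgeR, with no unadjusted p below 0.05 other than that of DHT against enzalutamide at 4 h. The library kit marks strand, but whether the counting used it is not given in the sources used here, so reads of ELF3 and ELF3-AS1 in the shared part may not be told apart.

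**Figure D4:**
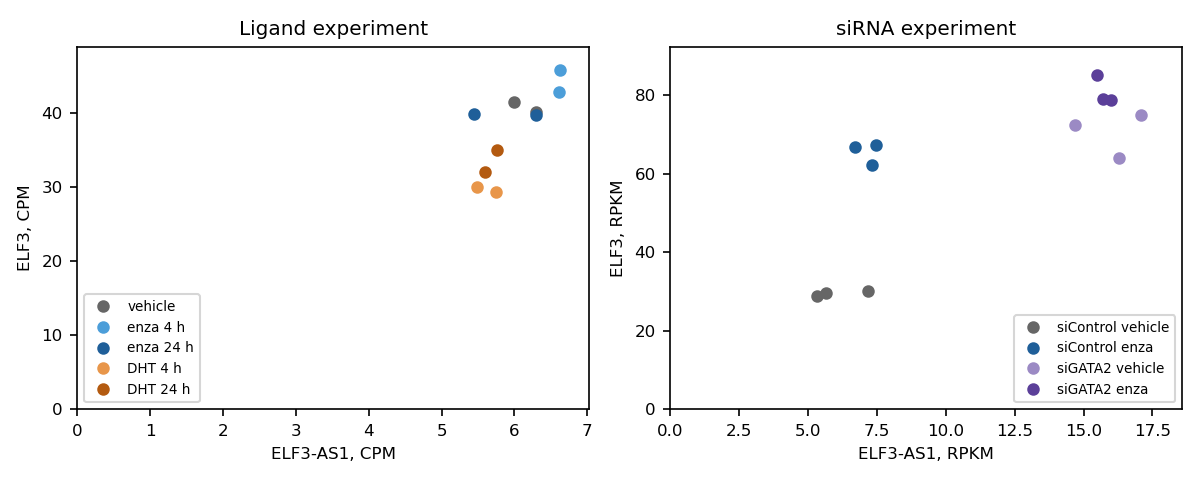
Level of ELF3 against that of its antisense gene ELF3-AS1 in each library, in CPM for the 10 ligand libraries and in RPKM for the 12 siRNA libraries. In the siRNA panel the siControl enzalutamide libraries have ELF3-AS1 at 6.72 to 7.48 RPKM, overlapping siControl vehicle, and ELF3 at 62.1 to 67.2 RPKM, overlapping siGATA2 vehicle.

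ETV1 rose with siGATA2 from 12.8 to 14 RPKM to 14.5 to 15.5 RPKM in vehicle (0.15, SE 0.0401, limma adjusted p = 0.00749) and from 10.5 to 10.9 RPKM to 13.7 to 14.5 RPKM under enzalutamide (0.41, SE 0.0401, limma adjusted p = 7.75e-06). MIPOL1, near which the extra ETV1 copy lies, rose by 0.31 and 0.44 in the same comparisons (limma adjusted p = 0.00358 and 3.26e-04). FOXA1, the other neighbour, stayed at means of 139 to 144 RPKM in the 4 groups and was not called (0.03 and 0.05). With enzalutamide in siControl cells neither MIPOL1 (-0.19, limma adjusted p = 0.0537) nor FOXA1 (0.00, limma adjusted p = 0.96) was called. The tables do not separate the inserted copy of ETV1 from the others.

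ETV4 was the member whose knockdown effect was called under enzalutamide alone, where it had 0.679, 0.621 and 0.618 RPKM against 0.792 to 0.875 RPKM in siControl (-0.32, SE 0.112, limma adjusted p = 0.0339). It was -0.07 in vehicle, and the interaction was not called. The call was lost without any of the siControl enzalutamide libraries (adjusted p = 0.0552, 0.106 and 0.057 for replicates 1, 2 and 3), without siGATA2 enzalutamide replicate 2 (0.0861) or 3 (0.0899), and with the libraries rescaled to 1 median (-0.28, adjusted p = 0.051).

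**Figure D5:**
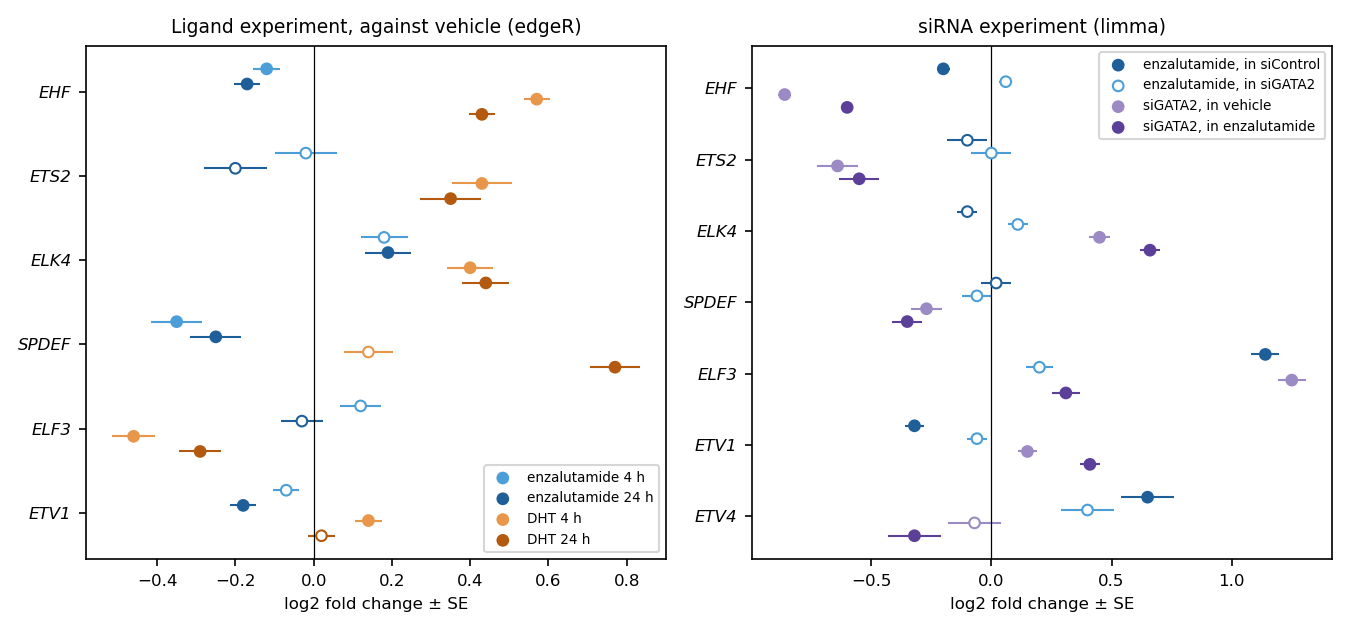
Log2 fold change with its standard error for each member, against vehicle in the ligand experiment (left, edgeR, 2 libraries per group) and in the siRNA experiment (right, limma, 3 libraries per group); filled points have an adjusted p below 0.05 and open points do not. On the left the DHT points of EHF, ETS2, ELK4 and SPDEF lie to the right of 0 and those of ELF3 to the left, and on the right ELF3 shows the largest rises and EHF the largest falls.

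The 19 other ETS genes with a row in the tables were read by the same tests. Of the 17 tested with the ligands, 2 were called with enzalutamide at 4 h, 4 at 24 h, 1 with DHT at 4 h and 6 at 24 h, where 13.6%, 33.4%, 6.77% and 50.0% of all genes were called, so their calls were no more frequent than those of all genes. The count at 4 h of enzalutamide was 0 without enzalutamide 4 h replicate 2 or vehicle replicate 1. ETV5, the third PEA3 gene beside ETV1 and ETV4, rose with enzalutamide from 0.297 to 0.432 CPM in vehicle to 0.669 to 0.705 CPM at 4 h (0.96, SE 0.265, edgeR adjusted p = 0.031) and 0.927 to 0.968 CPM at 24 h (1.42, SE 0.248, edgeR adjusted p = 7.10e-04). In siControl cells ETV5 also rose with 25 μM, by 0.90 (limma adjusted p = 3.05e-04), from a mean of 0.144 to 0.36 RPKM. ETV1 fell in both settings at 24 h, so the 3 PEA3 genes did not share a direction.

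Of the 19 tested in the siRNA tables, enzalutamide in siControl called 2 up and 6 down, and siGATA2 in vehicle called 3 up and 9 down, with medians of 0.05 and -0.12 against -0.02 and -0.03 over all genes. These counts are close to the 42.1% and 55.6% of all genes called and show nothing particular to ETS genes. ELK3, a ternary complex factor like ELK4, fell with siGATA2 from a mean of 5.18 ± 0.178 RPKM to 1.89 ± 0.132 RPKM (SD, n = 3; -1.41, SE 0.0516, limma adjusted p = 5.11e-09), opposite to ELK4. ELF1 rose by 0.70 and by 0.87 in vehicle and under enzalutamide. ETS1, the closest relative of ETS2, fell by 1.01 under enzalutamide, from 0.306 to 0.102 RPKM on average.

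Among 8 genes known to act on ETS proteins or transcripts, 2 were called up with enzalutamide at 24 h and none down (16.4% and 17.0% of all genes). ATXN1, a partner of the PEA3 repressor CIC, rose by 0.70 there, fell by 1.16 with DHT at 24 h and rose by 0.76 in siControl cells with 25 μM enzalutamide. CIC itself fell by 0.20 with DHT at 24 h. Of the 12 known 5' partners of ETS rearrangements, DHT at 4 h called 6 higher and none lower (4.66% and 2.11% of all genes). At 24 h it called 7 higher and 1 lower (26.9% and 23.2% of all genes). KLK2 led at both times (2.80 and 4.23), and the list medians were 0.22 and 0.41 against -0.01 and 0.00 over all genes. With siGATA2 in vehicle, where 55.6% of all genes were called, 3 of the partners rose and 7 fell, and under enzalutamide (54.5% of all genes) 6 rose and 6 fell, with a median of -0.10. In vehicle the largest falls were those of KLK2 (-5.60), SLC45A3 (-1.88) and TMPRSS2 (-1.53).

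Of 8 MAPK output genes tested in the siRNA tables, siGATA2 in vehicle called 2 up and 4 down, among them SPRY4 (1.45) and PHLDA1 (-1.97). In this comparison 24.2% of all genes rose and 31.4% fell, and the counts of this list and of those that follow are read as descriptions of their genes alone. SRF, the partner of ELK4 at serum response elements, fell by 1.68 with siGATA2 in vehicle, while 3 of the 9 serum response genes rose, IER2 by 0.89, MCL1 by 0.81 and JUNB by 0.76. Of the ETV1 neighbours on its native chromosome arm, VWDE (-1.05) and SCIN (-0.67) fell with siGATA2 in vehicle, and DGKB, which lies next to ETV1 and was singled out after its values were seen, was not called (-0.06, SE 0.0642). Of the genes around MIPOL1, 2 of 6 rose and 2 fell, SEC23A by 0.49 upward and TTC6 by 0.34 downward.

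The genes whose pattern was most like that of a member were taken by the lower of 2 Pearson correlations of log2 levels, over the 10 ligand and the 12 siRNA libraries, among 11383 genes. Libraries of a group and the shared scale enter all of these, and the values are descriptions. For EHF the nearest was TMPRSS2 (r = 0.985 and 0.991), followed by TWISTNB and OTULINL. Those named for ETS2 are EHF itself (0.964 and 0.963) and TMEFF2 (0.961 and 0.957). ELK4 was nearest to PPP1CB (0.944 and 0.977), ETV1 to EIF4G2 (0.95 and 0.95), SPDEF to KLF16 (0.947 and 0.975) and ELF3 to TUFT1 (0.943 and 0.933).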

How the data were processed

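RNA of LNCaP cells was made into strand-marking poly(A) libraries. The submitters' processing notes name TopHat2 2.0, Partek and the build hg19; no source used here gives the annotation or the use of strand. For the ligand experiment the authors deposited estimated counts per gene, which were rounded to whole numbers; for the siRNA experiment the authors deposited RPKM, so read depth there is unknown. The members and gene lists were chosen with earlier results of these data known.

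Genes were matched by symbol over 24 samples. The 3 vehicle columns named replicate 1 differed from each other by a mean chi-square per gene of 1.53 to 1.56. With replicate 2 the value was 3.56 to 3.74, and the 3 columns were summed as 1 library. Replicate pairs elsewhere gave 2.03 to 9.82. The measure grows with depth and was not corrected for it. The 3 columns held 18778840 to 21717301 counts, replicate 2 held 38894876, and the libraries of the other pairs 40281721 to 56454994. The contrast with the other pairs therefore cannot decide whether the 3 columns were 1 library or separate replicates. Counts of the 5 ligand groups entered 1 fit in edgeR 4.0.16 (R 4.3.3; filterByExpr, TMM, quasi-likelihood test; 15555 genes, 6 of the 8 members). ERG and ETV4 fell below this filter. The quasi-likelihood test gives no standard error. The SE printed for edgeR is the absolute log2 fold change divided by the square root of the F statistic. The 4 siRNA groups entered 1 fit in limma 3.58.1 on log2(RPKM + 0.1) over 20369 genes above 0 in at least 3 libraries; such fold changes understate those of low genes. Adjustment was by Benjamini-Hochberg over all genes. On simulated data with changes put into a sample of the genes, 79% of 1.5-fold and 93% of 2.0-fold changes were recovered for enzalutamide at 4 h. For enzalutamide in siControl these were 97% and 99%. The fits held 15555 and 20369 genes. The simulated ligand counts had a single assumed dispersion, and the changed siRNA genes averaged at least 1 RPKM. The siRNA rates therefore do not cover low genes such as ETV4 and ERG.

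Named genes were the members, GATA2, TMPRSS2, SLC45A3, FOXA1, MIPOL1, up to 4 called genes of largest change per list and comparison, and the 3 genes of most similar pattern; some items that these rules chose are not reported here. Alternatives were DESeq2 1.42.0, other scaling, filters and pseudocounts (0.01 and 1), other uses of the vehicle runs, a replicate block, a 2-fold call, each library left out and, chosen after seeing the data, the column prefix as a term. Deviations of same-numbered libraries correlated between -0.176 and 0.143 in the ligand and between -0.342 and 0.28 in the siRNA experiment. All 3 pairs exceeded 0.1 only between siControl and siGATA2 under enzalutamide, and the numbers were taken to pair samples there. The main fit leaves this pairing out, and the replicate block over all 4 siRNA groups takes it in.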

Additional observations from a re-analysis of the deposited data

Results flagged for a closer look

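A test of the difference between siRNAs or between times passed for members in both experiments. The enzalutamide effect differed between siGATA2 and siControl cells for ELF3 (-0.94 on the log2 scale, limma adjusted p = 2.86e-05), EHF (0.26, adjusted p = 6.13e-04), ETV1 (0.25, adjusted p = 0.00817) and ELK4 (0.21, adjusted p = 0.0239). DHT at 24 h differed from DHT at 4 h for SPDEF (0.63, edgeR adjusted p = 2.82e-06), EHF (-0.14, adjusted p = 0.00444), ETV1 (-0.12, adjusted p = 0.0115) and ELF3 (0.17, adjusted p = 0.0212), with 49.8% of all genes called. Between the times of enzalutamide ETV1 differed (-0.11, edgeR adjusted p = 0.0247). The vehicle samples have no stated time, so these steps do not allow for time in culture. The calls of ETV1 and ELF3 between times and of ELK4 between siRNAs were lost in some fits that left out 1 library.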

How the results depend on the processing

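Of 1585 values of member log2 fold changes under the alternatives, 1510 kept their direction and their side of the threshold, 40 lost the call, 15 gained one and 20 turned in direction. The replicate block changed no member call. With this block over all 4 siRNA groups, 7 members were called for siGATA2 against siControl in enzalutamide, as without it. No fit paired these 2 groups alone. The number of called members became 4 for enzalutamide at 4 h with the 4 vehicle columns as samples, where calls over all genes went from 2119 to 2938. For enzalutamide at 24 h against 4 h it became 2 with RLE size factors, with no filter on low counts or with the 4 vehicle columns, and 0 with the prefix term. Calls over all genes there went from 3829 to 3857, 4374, 4051 and 1628 in that order. A call of more than 2-fold with unadjusted p below 0.05 left 1 member for DHT against enzalutamide at 24 h, for enzalutamide in siControl and for siGATA2 in vehicle, and 0 in the other comparisons. No count over all genes is given for this rule, so these numbers of called members are descriptions alone. With 1 library left out, a group of 1 sample being assumed to vary like the others, the number ranged from 1 to 2 for enzalutamide at 4 h, 2 to 4 at 24 h, 0 to 2 between its times and 2 to 4 between the DHT times. It ranged from 4 to 5 for DHT at 4 h, 5 to 6 for DHT against enzalutamide at 4 h, 6 to 7 for siGATA2 in enzalutamide and 3 to 4 for the interaction. Values that turned in direction were not called, and the cause was not tested. For ETS2 they were 0.01 (ZC2 or ZC3 run alone) and 0.09 (prefix term) for enzalutamide at 4 h, 0.06 between the DHT times (prefix term), and 0.01 (rescaled), 0.06 and 0.0011 (1 library left out, range -0.05 to 0.06) for enzalutamide in siGATA2. For ETV1 with DHT at 24 h they were -0.03 (library totals), -0.02 (prefix term), -6.4e-05 and -0.0012 (1 library left out). ELK4 gave -0.0045 between the DHT times (library totals) and -0.02 and -0.10 between the enzalutamide times (1 library left out, up to 0.13, called without enzalutamide 4 h replicate 2), where SPDEF gave -0.01 (1 library left out, up to 0.21, called without enzalutamide 4 h replicate 1) and EHF 0.0032 (prefix term). ELF3 gave 0.001 for enzalutamide at 24 h (ZC1 run alone), SPDEF -0.02 and -0.01 for enzalutamide in siControl, and ETV4 0.03 for siGATA2 in vehicle (1 library left out, down to -0.18). With 2 ligand libraries per group, and with RPKM of unknown depth for ETV4 and ERG, small changes of these genes may not be detectable.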
